A study of Drosophila melanogaster with 6 samples.

Results

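The Imd pathway of *Drosophila melanogaster* was examined through 10 genes that run from the receptors that sense bacterial peptidoglycan to the transcription factor Relish and the inhibitor *pirk*. They were picked from the deposited gene table by symbol and make up 10 of its 17208 genes. All 10 passed the filter on low counts, so no member was lost. The set was drawn up around *pirk* with its difference between *ft* null and *w1118* embryos already known. The fold changes of the 10 genes are therefore given as a description with no test, and a count of members past a threshold supports nothing here. RNA came from whole embryos aged 16 to 20 h. The mutant embryos were *ft fd5-5/ft X13*, a combination of 2 alleles of *fat* that is given as a null (*ft* null below, 4 libraries). The controls were *w1118* embryos, a laboratory strain mutant for the *white* gene (2 libraries). Levels of a group are given below as mean ± SD over these 4 and 2 libraries, *ft* null first. The labels name no other allele, agent or treatment in either group, and they do not say how many embryos entered a library or whether libraries came from separate collections. If they did not, the spread between libraries is technical. Strain background and the *ft* alleles differ together between the groups and cannot be told apart, and the same holds for a difference in mean age within the collection window.

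The Imd pathway is the arm of fly immunity best known for the response to bacteria with DAP-type peptidoglycan, chiefly Gram-negative species. A peptidoglycan recognition protein at the cell surface or in the cytoplasm binds the fragment and recruits the adaptor Imd, which brings in Fadd and the caspase Dredd. A kinase cascade and the IKK complex, which holds Kenny (the product of *key*), then act with Dredd to cleave and activate Relish, and nuclear Relish switches on antimicrobial peptide genes. Pirk is a cytoplasmic inhibitor that binds the receptors and Imd, and in infected flies its own gene is switched on by the pathway. The fat body and the gut are the tissues in which this pathway is best known.

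Library totals ran from 21261928 to 29151981 estimated counts. *ft*, the mutated gene, stood at 28.6 to 32.2 CPM (counts per 1000000 reads counted, with library sizes scaled by TMM factors) in the 4 mutant libraries and at 43.2 and 46.3 CPM in *w1118*. Most markers of late embryonic tissues were abundant, led by the muscle genes *Act57B* (15600 ± 1270 and 18100 ± 304 CPM, SD, n = 4 and n = 2) and *Mhc* (8920 ± 822 and 8270 ± 3330 CPM). Of 15 such markers, all tested, 1 passed in edgeR, the tracheal receptor gene *btl*, which rose by 0.92 on the log2 scale (SE 0.151, edgeR adjusted p = 0.016, and 2.92e-05 to 0.109 over 14 alternatives, lost in 5, among them those without *ft* null replicate 3 or *w1118* replicate 1). Among all tested genes 4.30% were called in edgeR. The cuticle gene *Cpr47Ea* was low, at 1.33 to 3.33 CPM. Of 14 markers of early embryos 11 were tested and 0 passed in edgeR, with 0 at an unadjusted p under 0.05 and 0 called by DESeq2 or limma voom. Their summed level was higher in every mutant library, at 421 to 448 CPM against 348 and 384 CPM. Most of the sum came from *gcl* (364 ± 22.4 and 303 ± 20.3 CPM) and then from *sna* (26.8 ± 3.01 and 24.0 ± 1.66 CPM). The maternal genes *nos* (3.07 ± 0.314 and 2.92 ± 0.999 CPM) and *osk* (0.655 ± 0.205 and 0.628 ± 0.628 CPM) were far lower and overlapped between the groups. The maternal gene *bcd* varied widely within both groups, with 117, 125, 3 and 41 reads in *ft* null and 144 and 12 reads in *w1118*, while *ftz*, *nullo* and *halo* held at most 4 reads in any library. Except for *Act57B*, *Mhc*, *gcl* and *sna*, the genes of these marker lists were chosen after their values were seen. The part of age in the levels of the Imd genes was not tested. *ft* null replicate 1 stood somewhat apart, with a Spearman rho across genes of 0.977 to 0.987 with the other mutant libraries, against 0.994 among those. It was the lowest mutant library in 5 of the 10 Imd genes and the highest in 1.

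*pirk* (FBgn0034647, dm6 2R:21660967-21662995, minus strand, 2 annotated transcripts) showed the largest difference of the 10 genes. Its level was 4.99, 4.79, 5.36 and 5.69 CPM in *ft* null replicates 1 to 4, from 105, 105, 128 and 163 reads. In *w1118* replicates 1 and 2 it was 15.1 and 13.2 CPM, from 465 and 287 reads. All 4 mutant libraries thus lay well below both controls, and the 95% exact Poisson intervals, which cover counting error only, reached 6.64 CPM at most in *ft* null and 11.7 CPM at least in *w1118*. Means of 5.21 ± 0.400 and 14.1 ± 1.38 CPM (SD, n = 4 and n = 2) make *pirk* 2.71-fold lower in *ft* null, or -1.44 as the fitted log2 fold change (SE 0.153). The spread of *pirk* among the mutant libraries, a coefficient of variation of 7.69%, was no larger than the 8.94% that counting alone gives at this depth. Between the 2 *w1118* libraries it was 9.74%, above the 5.16% that counting gives there. The fold change of *pirk* did not rest on the library that stood apart, since it was -1.42 (SE 0.163) without *ft* null replicate 1.

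**Figure D1:**
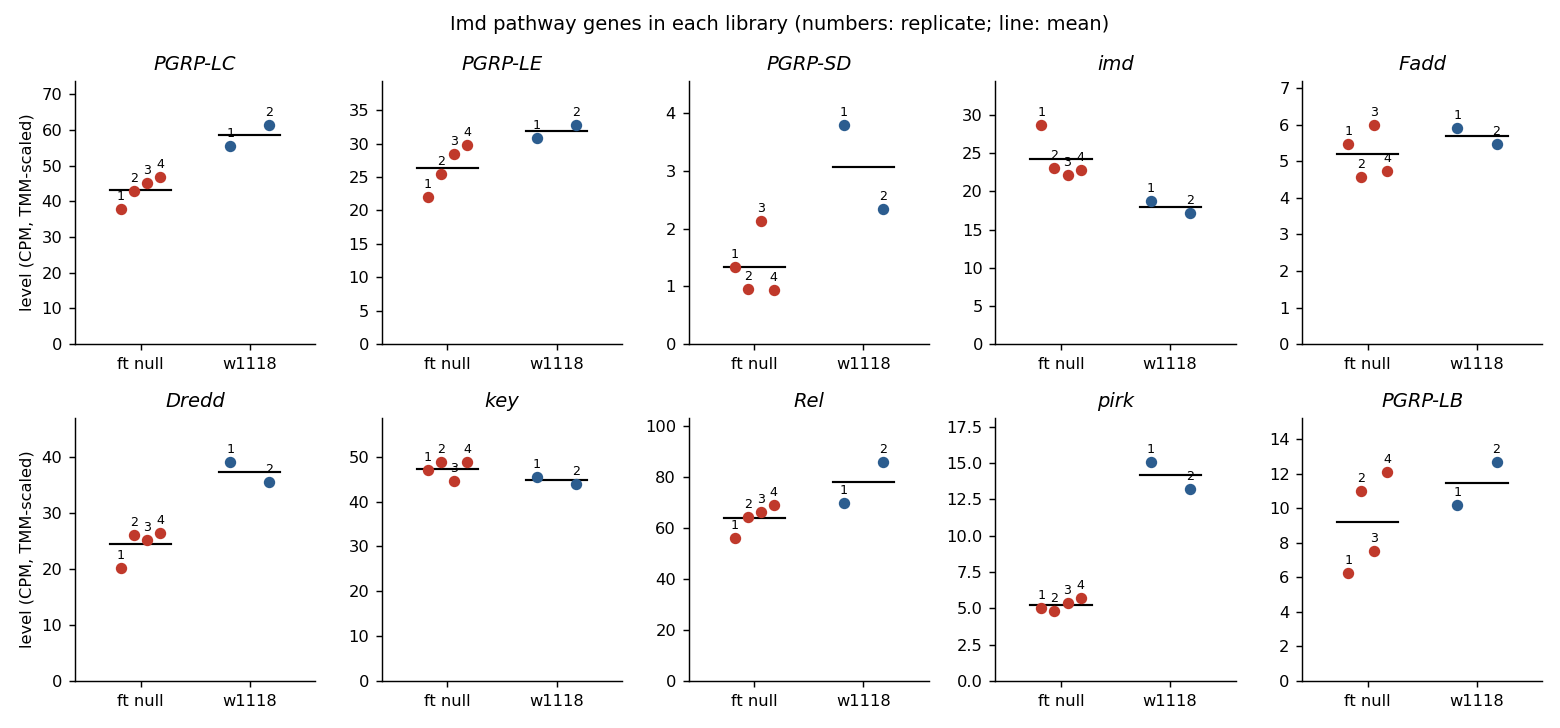
Level of each of the 10 Imd pathway genes in each library, in TMM-scaled CPM on axes that start at 0; points are libraries numbered by replicate (red *ft* null, blue *w1118*) and lines are means. The 4 *ft* null values of *pirk* lie between 4.79 and 5.69 CPM, below both *w1118* values, while *imd* is the gene whose 4 *ft* null values all lie above both controls.

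In the fit across all genes, *pirk* was the 1 member called by edgeR (adjusted p under 0.05), lower in *ft* null, where 4.30% of the 11542 tested genes were called in either direction and 2.15% lower. DESeq2 called 3 members where it called 8.40% of all genes, and limma voom called 1 where it called 4.54%. Counting *pirk*, the 4 mutant libraries all lay below both controls in 6 of the 10 genes and above both in 1, and overlapped them in 3. Among all tested genes 16.4% were separated downward and 15.1% upward. The log2 fold change was below 0 in 8 members and above 0 in 2, with a median of -0.30 (-0.29 over the 9 without *pirk*) beside 0.01 over all tested genes. As the members were chosen with this contrast known, nothing is read from these shares.

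None of the 3 receptor and recognition genes of the set was called in edgeR, and their values are a description. *PGRP-LC* (FBgn0035976, dm6 3L:9338810-9348336, plus strand, 10 annotated transcripts) encodes the main membrane receptor of the pathway. Its level was 37.8, 42.9, 45.0 and 46.7 CPM in *ft* null and 55.5 and 61.4 CPM in *w1118*, with no overlap (log2 fold change -0.44, SE 0.119). Its transcripts encode receptor forms with different recognition domains, which a count per gene cannot separate.

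*PGRP-LE* (FBgn0030695, dm6 X:15801153-15803880, minus strand) encodes the receptor that senses peptidoglycan inside the cell. Its level was 22, 25.5, 28.4 and 29.8 CPM in *ft* null and 30.9 and 32.8 CPM in *w1118*. The highest mutant library came close to the lower control, so the separation is narrow (log2 fold change -0.27, SE 0.143). *PGRP-SD* (FBgn0035806, dm6 3L:7651180-7651900, plus strand, 1 exon) encodes a secreted recognition protein known to promote sensing by the membrane receptor. It held the fewest reads of the set, 28, 21, 51 and 27 in *ft* null and 117 and 51 in *w1118*. The corresponding levels were 1.33, 0.958, 2.14 and 0.943 CPM against 3.80 and 2.34 CPM.

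*PGRP-SD* had the second largest difference of the set (log2 fold change -1.20, SE 0.379) and the widest spread, with a coefficient of variation of 41.6% in *ft* null where counting alone gives 17.7%. In *ft* null replicate 3 the counting interval was 1.59 to 2.81 CPM and in *w1118* replicate 2 it was 1.74 to 3.07 CPM, so these libraries cannot be ordered at this depth. The 35 bases that *PGRP-SD* shares with CG7492 on the opposite strand, 4.90% of its exon sequence, add a further limit, as the library kit does not mark strand.

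*imd* was the 1 member whose mutant libraries all lay above the controls. The gene (FBgn0013983, dm6 2R:18409796-18413599, minus strand) encodes the death domain adaptor that gives the pathway its name. Its level was 28.7, 23.0, 22.2 and 22.8 CPM in *ft* null and 18.8 and 17.2 CPM in *w1118*, with all 4 mutant libraries above both controls. The log2 fold change was 0.42 (SE 0.148) and 0.33 (SE 0.126) without *ft* null replicate 1, which was the highest. *GstE9*, on the opposite strand, overlaps 40 bases of its exons.

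*Fadd* (FBgn0038928, dm6 3R:22034455-22035617, plus strand, 1 exon) encodes the adaptor between Imd and Dredd. Its libraries stood at 5.46, 4.56, 5.99 and 4.72 CPM in *ft* null and at 5.91 and 5.46 CPM in *w1118*, and the groups overlapped (log2 fold change -0.13, SE 0.188). *Dredd* (FBgn0020381, dm6 X:633622-635545, minus strand) encodes the caspase that cleaves Imd and Relish. Its level was 20.1, 26.0, 25.2 and 26.5 CPM in *ft* null and 39.2 and 35.5 CPM in *w1118*, so every mutant library was well below the controls. The log2 fold change of *Dredd* was -0.61 (SE 0.139), next in size after *pirk* and *PGRP-SD*, and -0.53 (SE 0.115) without *ft* null replicate 1.

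Neither *imd* nor *Dredd* was called in edgeR. *key* (FBgn0041205, dm6 2R:24785514-24787411, minus strand) encodes the regulatory subunit of the IKK complex. It was the steadiest member, at 47.0, 48.9, 44.6 and 48.9 CPM in *ft* null and 45.5 and 44.0 CPM in *w1118* (log2 fold change 0.08, SE 0.10). Its coefficient of variation in *ft* null was 4.29%, near the 2.97% that counting gives.

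*Rel* (FBgn0014018, dm6 3R:9044183-9047977, minus strand) encodes Relish, the NF-kappaB factor at the end of the pathway. It stood at 56.1, 64.3, 66.2 and 69.2 CPM in *ft* null and 70.0 and 86.1 CPM in *w1118*. The groups did not overlap, but the highest mutant library was close to the lower control. The log2 fold change of -0.29 (SE 0.132) depended on *w1118* replicate 2 and was -0.13 (SE 0.145) without it.

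*PGRP-LB* (FBgn0037906, dm6 3R:11452849-11460552, minus strand, 6 annotated transcripts) encodes an amidase that cuts peptidoglycan into fragments that no longer signal, and like *pirk* it acts as an inhibitor. Its level was 6.22, 11, 7.5 and 12.1 CPM in *ft* null and 10.2 and 12.7 CPM in *w1118*. Replicates 1 and 3 of *ft* null lay below both controls and replicates 2 and 4 lay between them, and the coefficient of variation was 30.3% where counting gives 6.68%. With a log2 fold change of -0.31 (SE 0.276), the amidase gene did not show the separation of the groups seen for *pirk*.

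Levels of different genes can be compared only per length, so CPM was divided by the kilobases of merged exon sequence. Merged exons are longer than the longest transcript in *PGRP-LC*, *PGRP-LB* and, by little, *Dredd*, which lowers these genes against the others. Orders and ratios that involve them, such as *pirk* against *PGRP-LB* or *PGRP-LC*, depend on this choice of length. On this scale *key* was the highest of the 10 in both genotypes, at 33.3 ± 1.43 CPM per kb in *ft* null and 31.5 ± 0.750 CPM per kb in *w1118*. *Rel* came next, at 18.3 ± 1.61 and 22.3 ± 3.24 CPM per kb. In *ft* null the genes from *Rel* through *imd* (15.9 ± 2.0), *Dredd* (14.3 ± 1.72), *PGRP-LE* (12.7 ± 1.65) and *PGRP-LC* (11.5 ± 1.04 CPM per kb) overlapped each neighbour in that order over the libraries. In *w1118* the order below *Rel* was *Dredd* (21.9 ± 1.54), *PGRP-LC* (15.6 ± 1.11), *PGRP-LE* (15.4 ± 0.661) and *imd* (11.9 ± 0.746 CPM per kb). The order of *imd* and *Dredd* in *ft* null rests on replicate 1, where they stood at 18.9 and 11.8 CPM per kb, while in replicates 2 to 4 *imd* was at 14.6 to 15.2 and *Dredd* at 14.8 to 15.5 CPM per kb.

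*pirk* ranked seventh in *w1118*, at 7.66 ± 0.745 CPM per kb, where it overlapped *PGRP-LB* (6.46 ± 0.983) and lay above *Fadd* (4.89 ± 0.277) and *PGRP-SD* (4.26 ± 1.43 CPM per kb). In *ft* null it ranked ninth, at 2.82 ± 0.217 CPM per kb, below *PGRP-LB* (5.18 ± 1.57) and *Fadd* (4.46 ± 0.573) and overlapping *PGRP-SD* (1.86 ± 0.775 CPM per kb). Ratios within a library do not depend on library scaling but also carry the differences of *imd* and *PGRP-LC*, and they reuse the values for which *pirk* was chosen. Per kilobase, *pirk* amounted to 14.3%, 17.1%, 19.9% and 20.5% of *imd* in *ft* null replicates 1 to 4 and to 65.9% and 62.8% in *w1118*. Against *PGRP-LC* it amounted to 22.6% to 26.8% in *ft* null and to 55.2% and 43.5% in *w1118*. The ratio to *imd*, which had a fold change above 0, differed more between the genotypes than the ratio to *PGRP-LC*, which had one below 0.

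**Figure D2:**
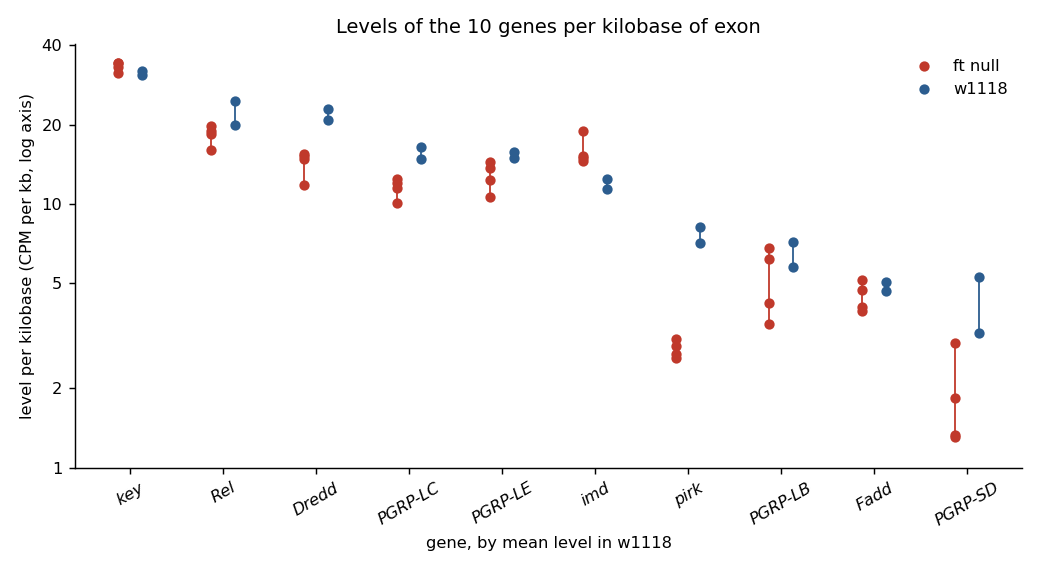
Level per kilobase of merged exon sequence (CPM per kb, log axis) of the 10 genes, ordered by their mean in *w1118*; points are libraries and vertical lines span the lowest to the highest library of a genotype. *key* leads in both genotypes, and the *pirk* points of *ft* null, at 2.6 to 3.08 CPM per kb, sit below its *w1118* points at 7.13 and 8.18 CPM per kb.

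The 5 tested genes whose centred log2 CPM lay nearest to that of *pirk* over the 6 libraries were CG2233, *TM4SF*, *Sid*, *amn* and *AGO1*. The measure is the root mean square difference from *pirk*, taken over 9795 other tested genes with an average log2 CPM of at least 1. It was 0.0665 for CG2233, with levels of 44.1 ± 2.48 and 119 ± 3.83 CPM. For *TM4SF*, a tetraspanin gene, it was 0.130, with levels of 7.45 ± 0.316 and 23.0 ± 0.0683 CPM. *Sid*, which encodes a DNase, had a distance of 0.140, the neuropeptide gene *amn* 0.152 and *AGO1*, the microRNA effector, 0.155. All 5 were lower in *ft* null, with log2 fold changes of -1.63 to -1.35, and this follows from how they were chosen. No other Imd gene was among them: *PGRP-SD* ranked 198th and *Dredd* 227th in likeness to *pirk*, and *imd* ranked 8480th.

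**Figure D3:**
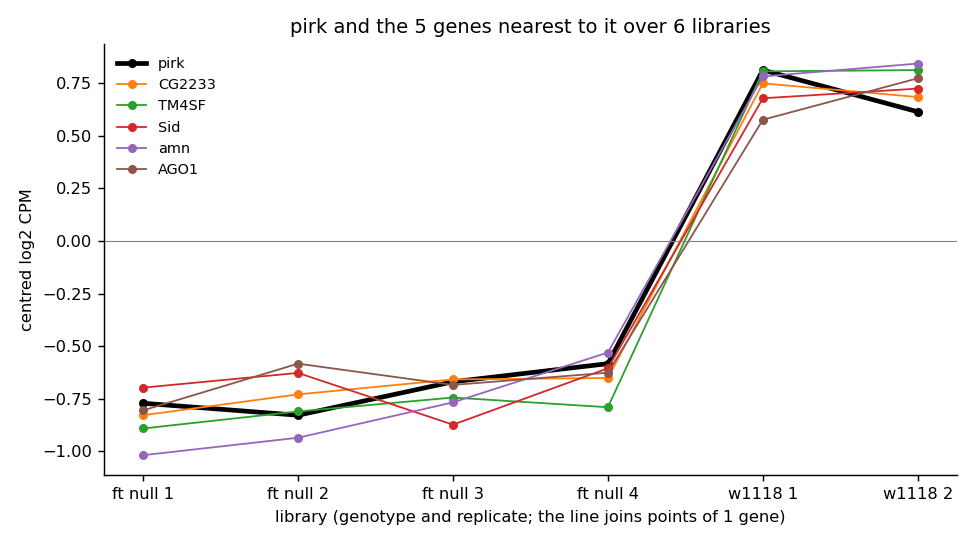
Centred log2 CPM of *pirk* (thick black line) and of the 5 tested genes nearest to it, over the 4 *ft* null and 2 *w1118* libraries; each line joins the points of 1 gene and has no meaning between libraries. All 6 genes lie below 0 in every *ft* null library and above 0 in both *w1118* libraries.

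The position of the genes was compared with the differences around them. Within 50 kb of *pirk*, 30 other genes were tested, of which 2 were called and 1 of these was lower in *ft* null, with a median log2 fold change of 0.16. Around *imd* 7 of 26 tested genes were called and 5 of these were lower. Called genes numbered 2 of 23 tested around *PGRP-LE*, 1 of 7 around *PGRP-SD*, 1 of 19 around *PGRP-LC* and 1 of 13 around *Fadd*. No gene was called within 50 kb of *Dredd*, *key*, *Rel* or *PGRP-LB*, out of 14, 18, 19 and 16 tested. These counts compare with 4.30% of all tested genes. *PGRP-LC* lies in a cluster with the related genes *PGRP-LA*, 473 bases before it, and *PGRP-LF*, 1272 bases after it, both on the same strand.

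Other genes of the pathway or related to it, called other Imd pathway genes here, were taken from 5 lists with 65 symbols. Of these 62 matched the table and 45 genes passed the filter on low counts. None of the 45 was called by edgeR, DESeq2 or limma voom. Before adjustment, edgeR gave a p under 0.05 to 1 gene higher and 1 gene lower in *ft* null, together 4.44% of the 45. Among all tested genes 9.92% were higher and 10.2% lower at that level, together 20.1%. The groups were separated in 13 of the 45, or 28.9%, against 31.5% of all tested genes. The median log2 fold change over the 45 genes was -0.02.

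Among 9 peptidoglycan recognition genes outside the set, 5 were tested and 0 called, with 0 at an unadjusted p under 0.05 and a median log2 fold change of -0.39. *PGRP-LA*, which was the most abundant and lies beside *PGRP-LC*, stood at 24.0, 28.6, 21 and 20.7 CPM in *ft* null and 34.8 and 27.0 CPM in *w1118*, so the groups overlapped (log2 fold change -0.39, SE 0.172, edgeR adjusted p = 0.252). Among genes chosen after their values were seen, the secreted amidase genes *PGRP-SC1a*, *PGRP-SC1b* and *PGRP-SC2* held at most 4 reads in any library, and *PGRP-SC1a* and *PGRP-SC1b* are near-identical copies. *PGRP-LD* shares 90.0% of its exon bases with *Pmi* on the same strand, and *PGRP-LF* shares 44.4% with *UGP* on the other strand, which leaves their values uncertain.

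All 15 genes of the kinases, ubiquitin enzymes and Relish partners were tested and 0 were called, with a median of -0.07. *eff*, a ubiquitin conjugating enzyme gene with the highest level, stood at 666 ± 12.7 and 551 ± 74.4 CPM, a difference of 0.27 on the log2 scale (SE 0.123, edgeR adjusted p = 0.262). *Tak1*, which encodes the kinase that activates the IKK complex, was named after its values were seen as the 1 gene lower at an unadjusted p under 0.05. Its libraries held 113, 116, 107 and 113 CPM in *ft* null and 134 and 154 CPM in *w1118*, a log2 difference of -0.36 (SE 0.106, edgeR adjusted p = 0.108). The 4 mutant libraries of *Tak1* lay below both controls.

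Of the negative regulators other than *pirk* and *PGRP-LB*, 13 were tested, 0 were called by any of the 3 tools and none had an edgeR p under 0.05 before adjustment. Their median was -0.01. *zfh1*, a repressor gene with the highest level of this list, had levels of 252 ± 38.2 and 224 ± 48.2 CPM and a log2 difference of 0.17 (SE 0.178, edgeR adjusted p = 0.652). The 9 genes listed for JNK signalling, a branch of which splits from the pathway at Tak1, had 0 called by any tool. None of them had an edgeR p under 0.05 before adjustment, and their median was -0.07. *kay*, which encodes the fly Fos, had levels of 218 ± 31.4 and 266 ± 27.5 CPM and a log2 difference of -0.29 (SE 0.153, edgeR adjusted p = 0.338). A p above the threshold does not show that these genes were equal in the genotypes.

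**Figure D4:**
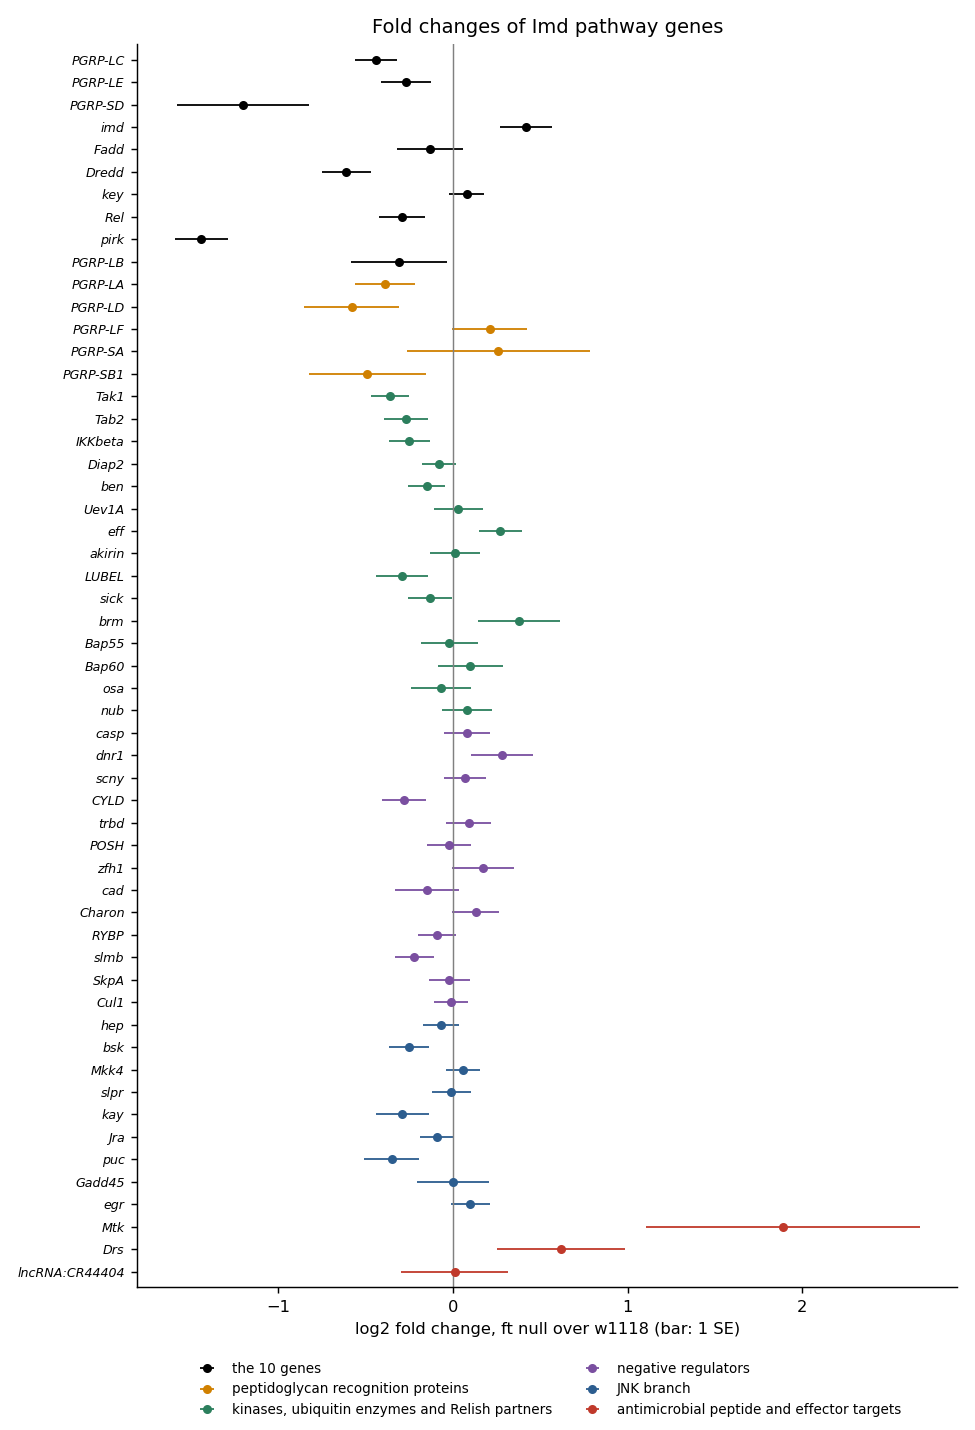
Log2 fold change of *ft* null over *w1118* with bars of 1 SE for the 10 genes (black) and for the 45 other tested Imd pathway genes, coloured by list. *pirk* at -1.44 lies furthest below 0, *imd* at 0.42 is the black point furthest above 0, and *Mtk* at 1.89 has the widest bar.

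The antimicrobial peptide and effector targets of the pathway were nearly silent in both genotypes. The 16 matched antimicrobial peptide and effector genes together held 56, 70, 68 and 63 reads in *ft* null replicates 1 to 4 and 101 and 50 reads in *w1118* replicates 1 and 2. In CPM without TMM factors this is 2.16 to 3.10 in *ft* null and 3.47 and 2.25 in *w1118*. Their summed level thus overlapped between the genotypes. *CecA1* and *CecB*, which encode cecropins, had 0 reads in all 6 libraries, and 13 of the 16 genes were too low to be tested. The gene with the highest level, listed as lncRNA:CR44404 (*IBIN*), held 24, 26, 24 and 22 reads in *ft* null and 35 and 19 reads in *w1118*, with a log2 difference of 0.01 (SE 0.307, edgeR adjusted p = 0.991).

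Single effector genes were unevenly spread at these low counts, and those named next were chosen after their values were seen. *AttA*, an attacin gene, held 0, 1, 0 and 0 reads in *ft* null and 18 and 9 reads in *w1118*, a rate 50.7-fold higher in *w1118* with a 95% exact interval of 8.36 to 2080 that covers counting error only. Its near-identical neighbour *AttB* held 5, 6, 4 and 1 reads and 10 and 4 reads, and reads are divided between such copies by a model, so the value of *AttA* is uncertain. *DptB*, a diptericin gene, held 2, 1, 2 and 0 reads in *ft* null and 11 and 2 reads in *w1118*. For all 3 genes *w1118* replicate 1 held the most reads of the 6 libraries.

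*Mtk* and *Def* lay the other way. *Mtk*, which encodes metchnikowin and is also driven by the Toll pathway, held 2, 13, 11 and 17 reads in *ft* null and 2 and 4 reads in *w1118*. Its log2 fold change was 1.89 (SE 0.784, edgeR adjusted p = 0.233), and it passed only without *ft* null replicate 1 (2.20, edgeR adjusted p = 0.0488, within a range of 0.0488 to 0.509 over 12 alternatives). *Def*, the defensin gene, held 4, 7, 8 and 4 reads against 2 and 0. *Def* was too low to be tested.

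**Figure D5:**
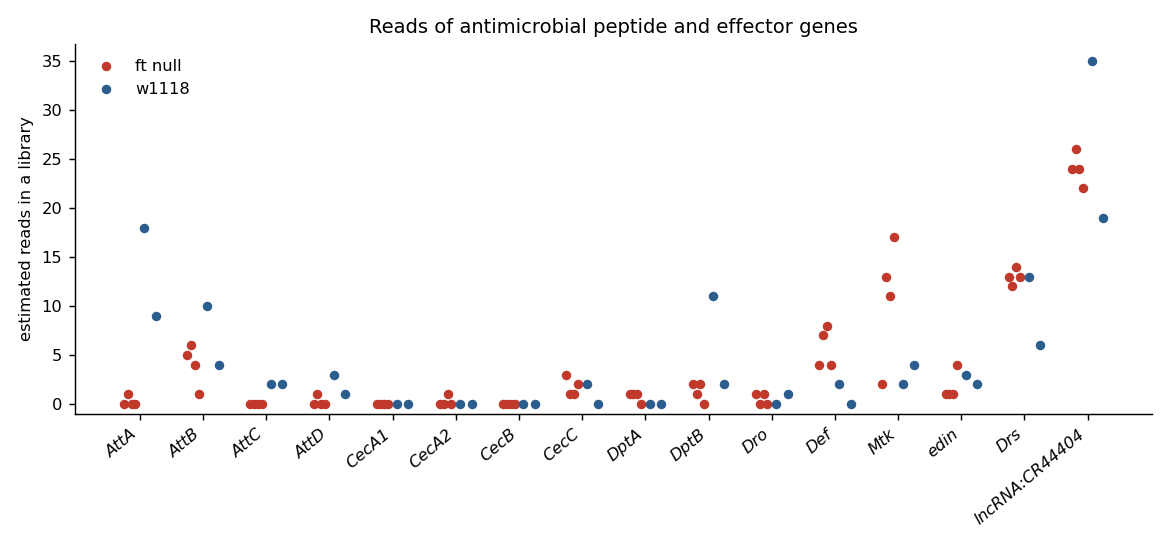
Estimated reads per library of the 16 matched antimicrobial peptide and effector genes, with 1 point a library (red *ft* null, blue *w1118*) on a linear axis. No gene exceeds 35 reads in any library; *AttA* has reads almost only in *w1118*, and *CecA1* and *CecB* are at 0 throughout.

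In bulk RNA from whole embryos, fewer cells of a type and less RNA per cell cannot be told apart, which holds for *pirk* and every other gene here. Marker lists of cell types in which the pathway acts are given beside these results, and their part in the level of *pirk* was not tested. Of 15 hemocyte markers, all tested, 1 rose, 1 fell and 13 did not pass in edgeR, where 4.30% of all tested genes were called. Before adjustment 3 were higher and 3 lower, where 9.92% and 10.2% of all tested genes were. DESeq2 and limma voom each called 2 of the list, where they called 8.40% and 4.54% of all tested genes. None of these markers was at 0 in every library. Their summed level was 8910 to 11300 CPM in *ft* null and 5770 and 10600 CPM in *w1118*, most of it from the collagen genes *Col4a1* (5570 ± 589 and 4360 ± 2030 CPM) and *vkg* (3840 ± 387 and 2810 ± 1300 CPM). The scavenger receptor gene *Sr-CI* rose by 0.92 on the log2 scale (SE 0.175, edgeR adjusted p = 0.0279, and 0.000186 to 0.132 over 14 alternatives, lost in 6). *PPO2*, which encodes the prophenoloxidase stored in crystal cells, fell from 359 and 312 CPM to 144, 82.0, 111 and 121 CPM, by -1.55 as a log2 fold change (SE 0.198, edgeR adjusted p = 0.00516). Its call was lost without *w1118* replicate 1 (adjusted p of edgeR 0.0600, the highest of 14 alternatives, the lowest being 3.83e-10). Both genes were chosen after their values were seen.

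Of 12 fat body markers 9 were tested and 0 were called in edgeR, where 4.30% of all tested genes were called. Before adjustment 1 was higher and 2 were lower, where 9.92% and 10.2% of all tested genes were. DESeq2 called 2 of the fat body markers and limma voom 0, where they called 8.40% and 4.54% of all tested genes. Their summed level was 3150 to 3340 CPM in *ft* null and 2990 and 3330 CPM in *w1118*, led by the lipoprotein gene *apolpp* (2470 ± 125 and 2240 ± 124 CPM) and by *Fatp* (352 ± 69.7 and 330 ± 101 CPM). Of 10 midgut markers 8 were tested, 0 rose and 1 fell in edgeR, where 4.30% of all tested genes were called. Before adjustment 0 were higher and 2 lower, where 9.92% and 10.2% of all tested genes were. DESeq2 and limma voom each called 1 midgut marker, where they called 8.40% and 4.54% of all tested genes. The summed level of the midgut list was 341 to 395 CPM in *ft* null and 450 and 536 CPM in *w1118*. The sum was thus lower in all 4 mutant libraries, which does not hold for each gene of the list. Of the 8 tested genes 2 were separated downward and 0 upward, where 16.4% and 15.1% of all tested genes were. The median log2 fold change of the list was -0.38. Among genes chosen after their values were seen, *lab* stood at -0.03 (SE 0.153) and *Amy-p* at 0.47 (SE 0.353). The midgut list was led by the regulator *GATAe* (162 ± 26.8 and 203 ± 23.4 CPM) and the protease gene *Jon65Aiv* (96.5 ± 36.9 and 132 ± 20.8 CPM). The gene that fell was the trypsin gene *lambdaTry* (by log2 fold change -0.86, with SE 0.165 and an edgeR adjusted p = 0.0287, and 0.000383 to 0.140 over 14 alternatives), chosen after its values were seen. Its call was lost in 6 of them, among them the fits without *ft* null replicate 3, *w1118* replicate 1 or *w1118* replicate 2.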

How the data were processed

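RNA-seq counts of whole embryos were compared between *ft* null (4 libraries) and *w1118* (2 libraries). The deposited table gives Salmon's estimated counts for each gene, without normalization; FastQC 0.10, Trimmomatic 0.33, Salmon 1.80, edgeR and build dm6 are named per the submitters' processing notes, while the sources used here do not give the annotation release and settings. Libraries were made with the SMARTer Ultra Low kit, per the labels' protocols, which does not mark strand or molecules. The estimated counts were rounded, filtered with filterByExpr, scaled by TMM and fitted with edgeR 4.0.16 (R 4.3.3, quasi-likelihood F test, genotype as the one term), with Benjamini-Hochberg adjustment over 11542 genes and a threshold of 0.05. The standard error is the log2 fold change over the square root of F. The common biological coefficient of variation was 18.2%. With 2 controls the spread comes mostly from *ft* null. CPM uses TMM factors, log2 CPM a prior count of 2. Positions and exon lengths come from Ensembl release 115 (dm6 coordinates). Merged exons exceed the longest transcript in *PGRP-LC* (3743 against 2579 bases), *PGRP-LB* (1775 against 1255) and *Dredd* (1708 against 1689). In the other members both lengths are equal. Alternatives were limma voom 3.58.1, DESeq2 1.42.0, DESeq2 size factors, no filter, unrounded counts, each library left out, a replicate block and replicates 1 and 2 only. The fits were tested on simulated data. The members and lists were chosen with earlier results of these data known. Named genes are the 10 members, up to 4 called genes or else the most abundant of each pathway list, the 2 most abundant of each marker list and the 5 genes nearest to *pirk*; others are said to be chosen after their values were seen. Of the listed symbols, *Tnip*, *DptC* and *BaraA* were not matched. In the pathway list of negative regulators, *pickle* is listed in the table as *Charon*. No sequence is printed.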

Additional observations from a re-analysis of the deposited data

Results flagged for a closer look

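*imd* in *ft* null replicate 1 stood at 28.7 CPM, away from the other 3 mutant libraries at 22.2 to 23.0 CPM, and its distance to the nearest of them was 0.871 of the whole range. It was the 1 gene so marked among 30 examined in the 4 *ft* null libraries, and chance marks about 1 group in 20.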

How the results depend on the processing

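The log2 fold change of *pirk* lay between -1.53 and -1.33 over 14 alternatives, and no member changed sign in any of them. As the set was drawn up around *pirk* with this contrast known, its range is a description and its calls in the alternatives support nothing here. With the replicate block the log2 fold change of *pirk* was -1.53 (SE 0.248). The numbers 1 and 2 shared by the genotypes give 2 pairs, and the deviations of same-numbered libraries correlated at 0.153 and -0.0407. With 2 controls the *w1118* deviations mirror each other, so these values cannot settle whether the pairs share a batch. The main fit takes the samples to share only a number. The count of members called was 2 with DESeq2 size factors, where 504 of all genes were called. It was also 2 without the filter, where 553 were called (*Dredd* joined *pirk* in both). With DESeq2 it was 3 (also *PGRP-LC*), where 970 genes were called. It was 1 to 2 when each *ft* null library was left out, where 231 to 806 genes were called. The count of other Imd genes called was 0 to 1 over those fits and 0 in the others. Over all genes, 496 were called, but 970 with DESeq2, 248 with replicates 1 and 2 only and no block (493 with the replicate block on the same libraries), and 173 to 806 when each library was left out, the lowest without *w1118* replicate 2 and the highest without *ft* null replicate 1. With the replicate block 455 genes were called; the midgut gene *Jon65Aiv* passed under it (log2 fold change -1.0, edgeR adjusted p = 0.0286, and 0.0246 with replicates 1 and 2 only, against -0.45 and 0.495 without the block, within 0.0246 to 0.843 over 14 alternatives), and the calls of *btl* and *lambdaTry* were lost. *Rel* at -0.13 without *w1118* replicate 2 was the 1 member value that moved by more than the SE of both fits, and the cause was not tested. *PGRP-SD* (-0.80 without *w1118* replicate 1) and *PGRP-LE* (-0.43 with the replicate block) moved by more than the SE of the main fit only. Levels without TMM factors stayed within the spread for all 10 genes. Depth limits *PGRP-SD* (21 to 117 reads) and the antimicrobial peptide genes.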
